A study of Mus musculus with 2 samples.

Results

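Early erythroid progenitors of the anaemic mouse spleen were the 323 cell barcodes, of 16152 that passed the filters in both libraries, that carried red cell lineage transcripts but gave under 20% of their unique molecular identifiers (UMIs, counts of single captured mRNA molecules) to haemoglobin genes. They were chosen by measured values: at least 5 UMIs summed over Klf1, Gata1, Epor and Car1, of which at least 2 of Klf1, and at most 2 UMIs summed over the lymphocyte genes Cd79a, Cd79b, Cd3d, Cd3e and Cd3g. Every barcode had 1000 or more UMIs, 300 or more genes and at most 10% mitochondrial UMIs. The chronic PHZ library held 222 progenitors and the chronic bleeding library 101.

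Live spleen cells came from C57BL/6 mice made anaemic over 1 month, either by injections of PHZ or by bleeding, in both cases at intervals of 3 days, and were profiled by droplet-based 3ʹ single-cell RNA sequencing. Each treatment had 1 library, the number of mice behind it is not given in the sources used here, and untreated mice were not analysed here. No test between treatments was therefore possible: every interval is at 95% and reflects only the error of counting molecules, cells were not treated as replicates, and a treatment cannot be told apart from its library. Levels are the UMIs of a gene per 1000000 UMIs of all genes but haemoglobin (CPM), summed over the cells of a set, so a cell with many UMIs weighs more than a cell with few.

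Red cell precursors begin as large, dividing progenitors that depend on the receptor tyrosine kinase Kit and its ligand, and pass to dependence on erythropoietin, which acts through its receptor Epor. Gata1 and Klf1 are the lineage's main transcription factors, and Car1, a carbonic anhydrase, marks its early stages. Haemoglobin genes and the enzymes of haem synthesis, led by Alas2, are switched on later, while the cells shrink and lose their nucleoli. In mice the spleen is a site of stress erythropoiesis, the added red cell production of anaemia.

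The first window listed for each gene in RefSeq (mouse build GRCm38.p6, 250 bases before the start) is shown for the genes that mark the ends of this path: Klf1, by which the cells were selected, Kit and Epor, the receptors of the earlier and the later dependence, and Alas2, the first enzyme of erythroid haem synthesis. Capitals mark AGATAA, a core letter string bound by GATA factors, or CCACACCC, one bound by Klf1, searched on both strands. The windows were chr8:84901732-84901981 on the plus strand for Klf1, chr5:75574737-75574986 on the plus strand for Kit, chr9:21963577-21963826 on the minus strand for Epor and chrX:150547167-150547416 on the plus strand for Alas2, each printed 5ʹ to 3ʹ.
Klf1: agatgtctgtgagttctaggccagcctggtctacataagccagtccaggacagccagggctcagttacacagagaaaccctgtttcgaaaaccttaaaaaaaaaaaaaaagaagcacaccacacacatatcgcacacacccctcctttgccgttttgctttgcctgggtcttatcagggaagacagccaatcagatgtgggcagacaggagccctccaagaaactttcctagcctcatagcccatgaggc
Kit: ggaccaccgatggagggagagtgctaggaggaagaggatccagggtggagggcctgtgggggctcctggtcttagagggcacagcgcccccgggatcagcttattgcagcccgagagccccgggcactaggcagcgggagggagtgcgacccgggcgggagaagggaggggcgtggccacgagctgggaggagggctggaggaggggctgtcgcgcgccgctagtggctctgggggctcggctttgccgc
Epor: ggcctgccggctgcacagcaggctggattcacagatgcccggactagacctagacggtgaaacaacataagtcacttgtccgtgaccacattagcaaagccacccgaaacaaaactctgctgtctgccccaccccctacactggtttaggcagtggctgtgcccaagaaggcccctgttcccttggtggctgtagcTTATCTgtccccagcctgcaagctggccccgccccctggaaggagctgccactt
Alas2: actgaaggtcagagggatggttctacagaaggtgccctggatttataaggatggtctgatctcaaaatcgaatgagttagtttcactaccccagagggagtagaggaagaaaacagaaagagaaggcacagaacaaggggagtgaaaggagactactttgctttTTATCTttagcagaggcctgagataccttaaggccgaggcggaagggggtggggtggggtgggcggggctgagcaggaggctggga
AGATAA, read here on the other strand as TTATCT, lay 54 bases before the start of Epor and 86 bases before that of Alas2, and neither string was in the windows of Klf1 and Kit. Each search also took in the 50 bases after the start, which are not printed. Over all genes in the table, 11.4% of 27025 windows held AGATAA and 3.57% held CCACACCC. A match is a description of the letters, not of binding.

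The progenitors were deep cells. The median progenitor held 67851.5 UMIs and 6691 genes in the PHZ library and 51118 UMIs and 6356 genes in the bleeding library, against medians of 12523 and 8545 UMIs over all filtered barcodes. UMIs per progenitor ran from 4249 to 191026 in the PHZ library and from 3612 to 170376 in the bleeding library. Their mitochondrial share had a median of 2.79% and 2.94%. No progenitor barcode occurred in both libraries, although 16 filtered barcodes did. Scrublet, a doublet caller, marked 23 PHZ and 9 bleeding progenitors, whose median UMIs were 90798 and 54499.

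**Figure D1:**
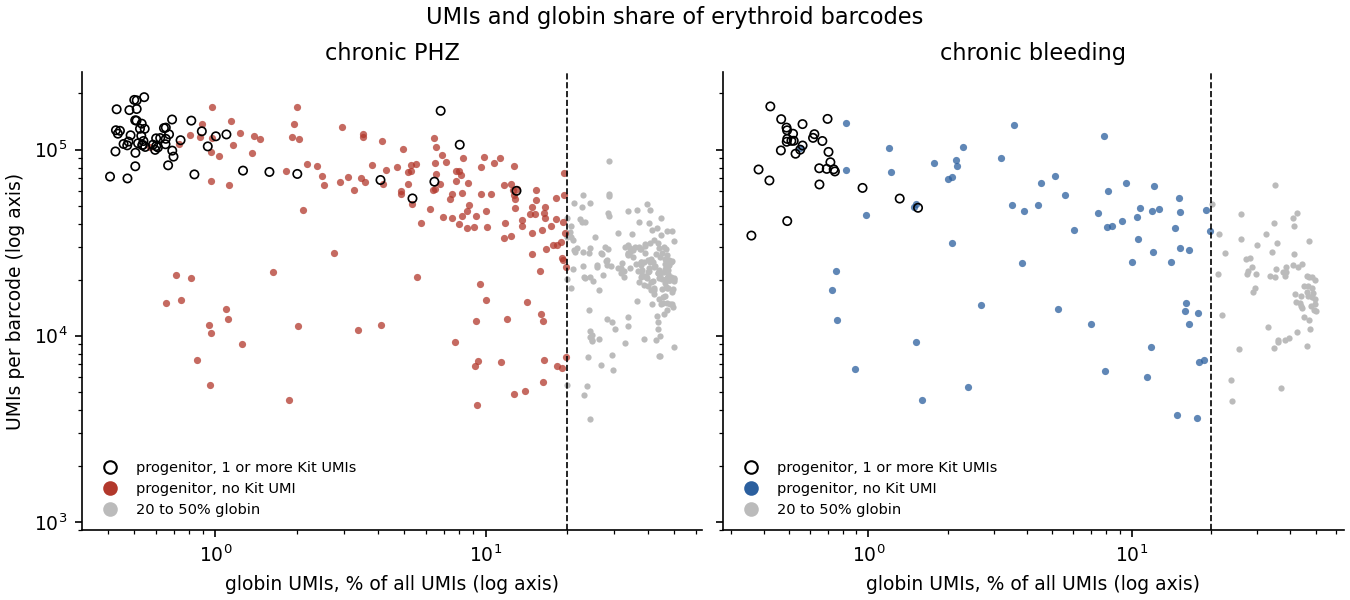
Each point is 1 erythroid barcode, with its share of haemoglobin UMIs in percent on a log horizontal axis and its total UMIs on a log vertical axis, for the PHZ (left) and bleeding (right) libraries; open circles are progenitors with a Kit UMI, coloured points progenitors without one, and grey points the cells of 20 to 50% globin beyond the dashed line at 20%. Kit-bearing progenitors gather at the upper left, mostly under 1% globin and among the deepest barcodes.

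The label "before haemoglobinisation" can hold for no more than a part of the set. The median globin share was 4.49% among PHZ and 2.16% among bleeding progenitors. Of the PHZ progenitors 66 had under 1% globin, 49 had 1 to under 5% and 107 had 5 to under 20%, which are 29.7%, 22.1% and 48.2%. Of the bleeding progenitors 38, 24 and 39 fell in these ranges, which are 37.6%, 23.8% and 38.6%. The lowest range was cut at a globin share of 1%, and its medians were 0.603% and 0.590%, or 634.5 and 568.5 globin UMIs per cell. In B cell barcodes (5 or more UMIs of Cd79a and Cd79b and no Klf1), which should make no globin, the median share was 0.934% and 0.723%, or 57 and 46 globin UMIs at median depths of 6107 and 6186.5 UMIs. Free RNA in the suspension was rich in globin, which took 40.5% and 33.5% of UMIs in background barcodes of 10 to 100 UMIs.

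The mix of globin genes separated these ranges too. In background barcodes Hba-a1 and Hba-a2, the paired adult alpha globin genes, gave 18.3% and 15.1% of globin UMIs in the PHZ library, and in its progenitors of under 1% globin they gave 18.6% and 16.5%. In its progenitors of 1 to under 5% they gave 26.4% and 10.3%. The bleeding library held the same order, with 17.0% and 15.9% under 1% globin and 26.5% and 9.22% at 1 to under 5%. Hbb-bt, an adult beta globin gene, went from 18.9% to 25.3% of globin UMIs between these ranges in the PHZ library and from 16.6% to 26.4% in the bleeding library, above its background shares of 14.2% and 13.4%. Under 1% globin the alpha globin mix thus lay near that of free RNA, and at 1 to under 5% it did not. These globin genes are near-identical copies, so the split of reads between them is uncertain.

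Cells just inside and just outside the thresholds were as follows. The 14 PHZ progenitors of 18 to under 20% globin had a median of 31318 UMIs and the 15 barcodes of 20 to under 22% had 32666, while the bleeding library had 4 on each side, with medians of 22005.5 and 28369.5 UMIs. Barcodes with 5 UMIs over the chosen genes numbered 5 and 2, and 4 and 2 barcodes had 4. Barcodes with 2 Klf1 UMIs numbered 8 and 10, and 18 and 4 were left out with 1. The limit on lymphocyte genes acted on deep cells: the 11 PHZ and 20 bleeding progenitors with 2 such UMIs had median depths of 111004 and 100399 UMIs, and 11 barcodes in each library, with medians of 93583 and 109735, were left out by having more. With no such UMI allowed, the bleeding library kept 53 progenitors.

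The genes that selected the cells are given as a description. Klf1 stood at 277 CPM in the PHZ library and 271 CPM in the bleeding library, with medians of 19 and 15 UMIs per cell. Gata1 stood at 171 and 154 CPM, with medians of 11 and 9 UMIs. Epor stood at 89.8 and 89.9 CPM, with medians of 5 and 4 UMIs. At full depth a Gata1 UMI was in 97.3% and 93.1% of progenitors and an Epor UMI in 91.0% and 95.05%. When progenitors were thinned to an equal number of UMIs without globin, the shares were 53.5% and 63.3% (Gata1) and 34.6% and 29.6% (Epor). In B cell barcodes, which were shallower and were not thinned, they were 2.19% and 0.991% (Gata1) and 1.46% and 0.508% (Epor). Car1 stood at 1301 and 1327 CPM, with medians of 53.5 and 46 UMIs. A Car1 UMI was in 94.1% and 92.1% of progenitors, or 88.5% and 86.7% after thinning, against 3.77% and 1.53% of B cell barcodes. These genes counted towards the choice of the cells, so their shares are no test of it. In GENCODE M21 on GRCm38 the genes lie at chr8:84901928-84905291 on the plus strand (Klf1), chrX:7959260-7978071 on the minus strand (Gata1), chr9:21958897-21963506 on the minus strand (Epor), chr3:14766216-14808368 on the minus strand (Car1) and chr5:75574916-75656722 on the plus strand (Kit).

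Kit, the label's marker that took no part in the choice, was confined mostly to progenitors with little globin. It stood at 26.8 CPM in the PHZ library (410 UMIs) and 41.8 CPM in the bleeding library (250 UMIs), with a UMI in 27.0% and 31.7% of progenitors. In B cell barcodes the shares were 0.608% and 0.483%. When each cell was thinned to 5000 UMIs without globin, the shares were 3.69% of 217 PHZ and 10.2% of 98 bleeding progenitors, so the share of cells seen with Kit rested on depth. Under 1% globin a Kit UMI was in 49 of 66 PHZ progenitors (74.2%) and 30 of 38 bleeding progenitors (78.9%), or 10.6% and 26.3% after thinning. Its level went from 54.9 CPM under 1% globin to 2.69 CPM at 1 to under 5% and 4.07 CPM at 5 to under 20% in the PHZ library, and from 72.6 to 1.46 and 0 CPM in the bleeding library. At 5 to under 20% globin 12 of the 19 PHZ UMIs of Kit were in 1 barcode of 161370 UMIs. In the next cells, with 20 to 50% globin, the PHZ library held no Kit UMI and the bleeding library held 1.

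Some other genes of the early progenitor list were highest with little globin and others with much. Myb, a transcription factor of dividing progenitors, stood at 157, 19.4 and 16.5 CPM across the 3 globin ranges of the PHZ library and at 202, 12.4 and 4.20 CPM in the bleeding library. Gata2, the GATA factor of stem and early progenitor cells, stood at 21.8, 0.538 and 1.07 CPM and at 19.3, 0 and 0 CPM. Cdk6, a kinase of the early cell cycle, stood at 475, 146 and 63.5 CPM and at 575, 103 and 28.5 CPM. All 3 were highest under 1% globin in each library. Members of the same list that ran the other way were Zfpm1, a partner of Gata1, at 256, 342 and 448 CPM in PHZ and 267, 341 and 495 CPM in bleeding progenitors, and Tal1, a lineage transcription factor, at 142, 202 and 310 CPM and 126, 191 and 337 CPM. Lmo2, which bridges Tal1 and Gata1, stood at 314, 344 and 435 CPM and 310, 389 and 537 CPM, and Rhd, a blood group antigen gene, at 136, 289 and 549 CPM and 145, 432 and 783 CPM. The list thus held both kinds of gene. Cd34, a surface marker of stem and multipotent cells, was nearly absent, with 3 and 2 UMIs in all. Myc and the cyclin Ccnd2 ran the same way, from 93.9 to 15.4 CPM and from 191 to 32.0 CPM in the PHZ library, and from 69.7 to 4.20 CPM and from 167 to 8.39 CPM in the bleeding library.

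Genes of haem, membrane and iron uptake stood higher with more globin. Alas2 stood at 13.8, 63.2 and 320 CPM in the PHZ library and at 14.0, 61.1 and 426 CPM in the bleeding library. Slc4a1, the band 3 anion exchanger of the red cell membrane, stood at 17.7, 260 and 1227 CPM and at 10.5, 330 and 1404 CPM. Tfrc, the transferrin receptor, stood at 399, 745 and 1430 CPM and at 371, 704 and 1285 CPM. Epor was near level, at 85.5, 99.99 and 88.1 CPM and at 88.4, 88.1 and 96.5 CPM. Klf1 went from 208 to 378 CPM and from 197 to 397 CPM between the lowest and highest range, and Car1 went down from 1730 to 909 CPM and from 1541 to 962 CPM. The D cyclins exchanged places, Ccnd3 going from 81.0 to 447 CPM and from 91.3 to 537 CPM where Ccnd2 went down. E2f2, a cell cycle transcription factor of the red cell lineage, went from 30.9 to 320 CPM and from 28.7 to 395 CPM. The proliferation marker Mki67 went from 622 to 2003 CPM and from 596 to 2332 CPM.

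**Figure D2:**
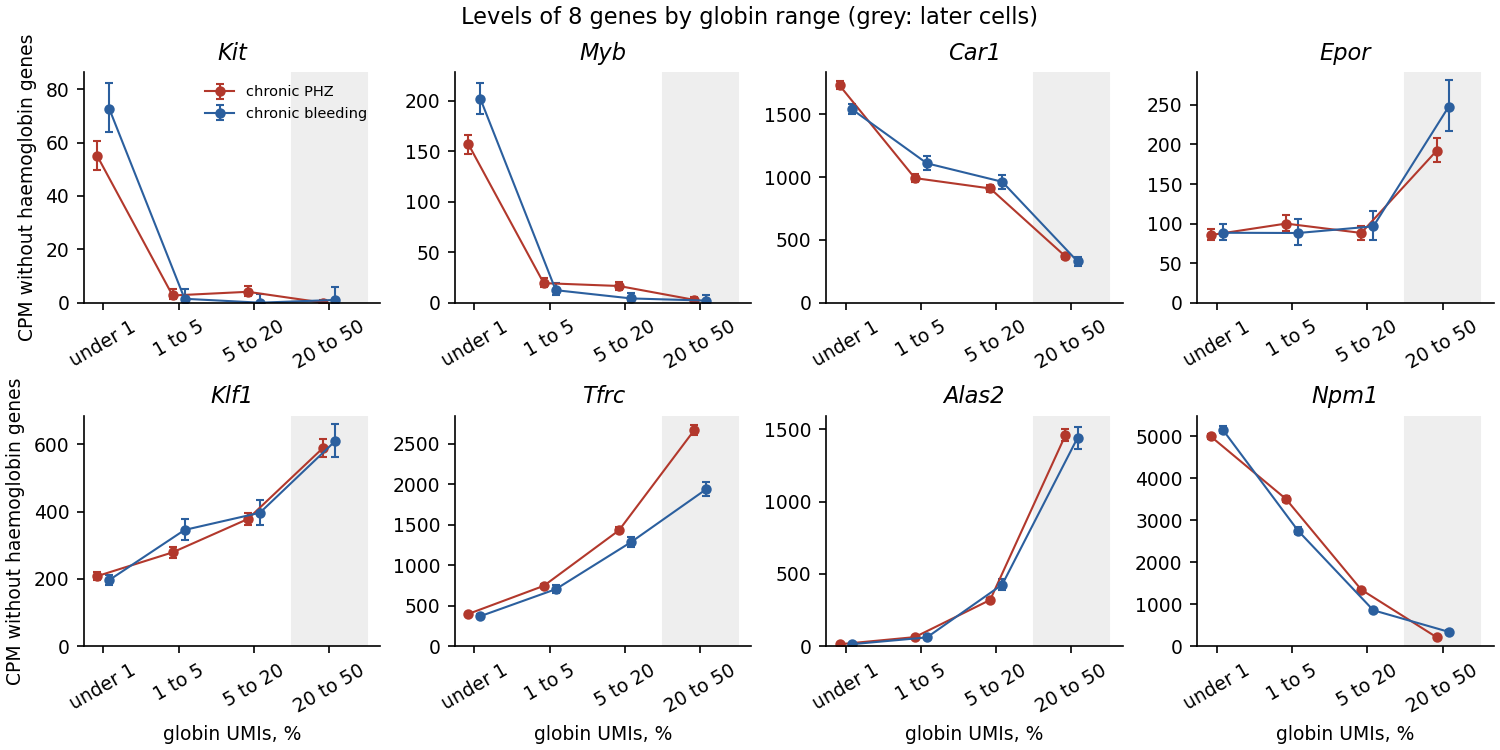
Levels of 8 genes (CPM without haemoglobin genes, vertical axes from 0) against the globin range in percent of UMIs, with exact 95% counting intervals as bars, for PHZ (red) and bleeding (blue); the grey band holds the cells of 20 to 50% globin, which are not progenitors by the rule. Kit and Myb drop after the lowest range, Epor is level across the progenitors, Klf1, Tfrc and Alas2 are higher with more globin, and Car1 and Npm1 lower.

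RNA of other cell types was found at low counts in many progenitors and at high counts in a few. Of 10 megakaryocyte genes, 4 were at 0 in PHZ and 3 in bleeding progenitors, Ppbp and Gp6 in both, and the summed level was 20.8 and 20.1 CPM, with 46 and 16 progenitors holding 3 or more such UMIs. Of 10 mast cell or basophil genes, Mcpt8, Fcer1a, Prss34, Mcpt4 and Tpsb2 were at 0 in both libraries, and 3 and 2 progenitors held 3 or more UMIs. Macrophage genes reached 3 UMIs in 2 and 1 progenitors. B cell genes summed to 62.8 and 154 CPM, against 3643 and 11698 CPM in background barcodes, and 130 and 84 progenitors held 3 or more such UMIs. Neutrophil genes summed to 51.3 CPM in the bleeding library and to 1535 CPM in the PHZ library, where 92.5% of the UMIs sat in 3 cells. A PHZ progenitor of 59982 UMIs and 13.0% globin held 16762 neutrophil UMIs and only 6 Klf1 UMIs, and another of 168861 UMIs held 4863. Scrublet marked both. The next PHZ progenitor held 140, and the highest bleeding progenitor 10. Neutrophil UMIs numbered 3 or more in 182 PHZ and 53 bleeding progenitors, and UMIs of granulocyte or monocyte precursor genes in 118 and 59. The neutrophil genes stood at 7847 and 4032 CPM in background barcodes.

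Progenitors made up a larger part of the PHZ library. They were 222 of 6445 filtered barcodes, or 3.44% (exact Clopper-Pearson interval 3.01 to 3.92), against 101 of 9707, or 1.04% (0.848 to 1.26), a ratio of 3.31 (2.61 to 4.23). With no lymphocyte UMI allowed the ratio was 4.26. Set against erythroid barcodes alone, the order turned: progenitors were 32.2% (28.7 to 35.8) of the 690 PHZ barcodes that met the same marker rule at any globin share and 35.7% (30.1 to 41.6) of the 283 bleeding barcodes, a ratio of 0.902 (0.709 to 1.15) whose interval holds 1. More progenitors and fewer other cells cannot be told apart from shares.

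Over all progenitors the treatments gave near-equal levels for most genes. Of 7542 genes with a mean of 10 CPM or more, 7413 (98.3%) lay within 1.5-fold, and the median log2 ratio of PHZ over bleeding was -0.02. A gene was called where the bound of its interval nearest 1 was beyond 1.5-fold: 14 genes were called higher in the PHZ library (0.186%) and 31 lower (0.411%). Of the 14, 8 were genes of neutrophils and other myeloid cells, among them S100a8 at 461 against 12.4 CPM, S100a9 at 590 against 20.9 CPM and Camp at 204 against 5.35 CPM. The marked PHZ barcodes described above held most of these UMIs: 8 genes were called higher without them, and 5 higher and 18 lower without all progenitors that Scrublet marked. Without the 3 highest cells of each library S100a8 was still 3.13 (2.42 to 4.11) times as high and S100a9 2.17 (1.77 to 2.67) times, beside background barcodes with 2438 against 1198 CPM of S100a8 and 2966 against 1609 CPM of S100a9. The part of free RNA in that remainder was not tested.

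Fabp5, Apol8 and Cish were called higher in PHZ progenitors and were found in many cells. The remaining 3 genes called higher were Gm49454, Rnf17 and Ano1. Fabp5, a fatty acid binding protein, stood at 639 CPM in the PHZ library, with a median of 31.5 UMIs per cell, and at 401 CPM in the bleeding library, with a median of 12, a ratio of 1.59 (1.52 to 1.67). It was in 80.2% of thinned PHZ and 57.1% of thinned bleeding progenitors. Apol8, of the apolipoprotein L family, stood at 78.3 against 45.0 CPM, a ratio of 1.74 (1.52 to 1.99). Cish, a feedback inhibitor that erythropoietin signalling induces, stood at 22.7 against 11.4 CPM, a ratio of 1.99 (1.53 to 2.62), and was in 61.3% against 40.6% of progenitors, or 13.8% against 10.2% after thinning. Cish was the only 1 of 17 measured genes of erythropoietin signalling and its targets that was called over all progenitors, and the call was lost in every globin range, at 1.01 (0.593 to 1.76), 1.51 (0.810 to 3.01) and 1.93 (1.34 to 2.86). Pim1 and Erfe, other genes that erythropoietin induces, stood at 116 against 71.5 CPM and 30.6 against 19.2 CPM and were not called. Their ratios within the ranges were 1.45, 1.11 and 1.43 for Pim1 and 0.967, 1.22 and 1.44 for Erfe, all under the ratios over all progenitors, 1.62 and 1.59. Cish, Pim1 and Erfe stood higher with more globin in both libraries, and the PHZ set held more cells of 5 to under 20% globin, 48.2% against 38.6%. The part of this mix of ranges in their ratios was not tested. Apol8 was called in no range, and Fabp5 was called at 5 to under 20% alone, at 2.36 (2.11 to 2.66). Background barcodes also held more Cish, Apol8 and Fabp5 in the PHZ library, with 96.0 against 18.9 CPM of Cish, 99.9 against 31.8 CPM of Apol8 and 218 against 51.5 CPM of Fabp5, and the part of free RNA was not tested.

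Angpt1, the ligand of the Tie2 receptor, led the genes lower in the PHZ library, at 29.7 against 120 CPM and a ratio of 0.247 (0.219 to 0.278). Its UMIs were in few cells: 31 of 222 PHZ and 16 of 101 bleeding progenitors had any, and the 3 highest cells held 66.8% and 69.2% of them. The highest single cell held 131 among PHZ and 214 among bleeding progenitors. Without the 3 highest cells of each library the ratio was 0.262 (0.211 to 0.323). Kcnq5 at 0.432 (0.373 to 0.5004), Aff3 at 0.446 (0.391 to 0.510) and Zbtb20 at 0.542 (0.486 to 0.605) were the other genes that the naming rule reached. All 3 were abundant in B cell barcodes, where Kcnq5 stood at 810 and 748 CPM, Aff3 at 1824 and 1608 CPM and Zbtb20 at 757 and 834 CPM. Most Kcnq5 and Aff3 UMIs of the progenitors were in those of under 1% globin. There Kcnq5 had 365 of 387 PHZ and 343 of 350 bleeding UMIs, and Aff3 435 of 479 and 401 of 419. Zbtb20 was less confined, with 285 of 789 and 264 of 568. The 3 highest cells held 42.6% and 52.6% of Kcnq5 UMIs and 28.8% and 43.7% of Aff3 UMIs. Ighm and Igkc, immunoglobulin genes of B cells, were called lower as well, at 0.275 and 0.244, and Igkc was at 1297 against 5330 CPM in background barcodes. The part of B cell RNA in these values was not tested.

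No more than 3 genes of any pathway list were called between the treatments over all progenitors. The 24 measured erythroid transcription factors, 19 haem synthesis genes, 52 genes of the G2 and M phases, 50 S phase genes and 24 ribosome biogenesis genes had none in either direction, which at 0.186% and 0.411% of all genes called says little about lists of this size. Their median log2 ratios were -0.01, 0.05, -0.07, -0.01 and -0.05, beside -0.02 over all genes. Ratios of Kit and Myb were 0.640 (0.546 to 0.753) and 0.679 (0.619 to 0.746), both uncalled. Neither direction was stable: the log2 ratio of Kit was -0.64 over all progenitors, -1.88 after thinning and 0.88 at 1 to under 5% globin (10 and 2 UMIs), and that of Myb was -0.56, turning to 0.65 at 1 to under 5% and 1.98 at 5 to under 20%.

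**Figure D3:**
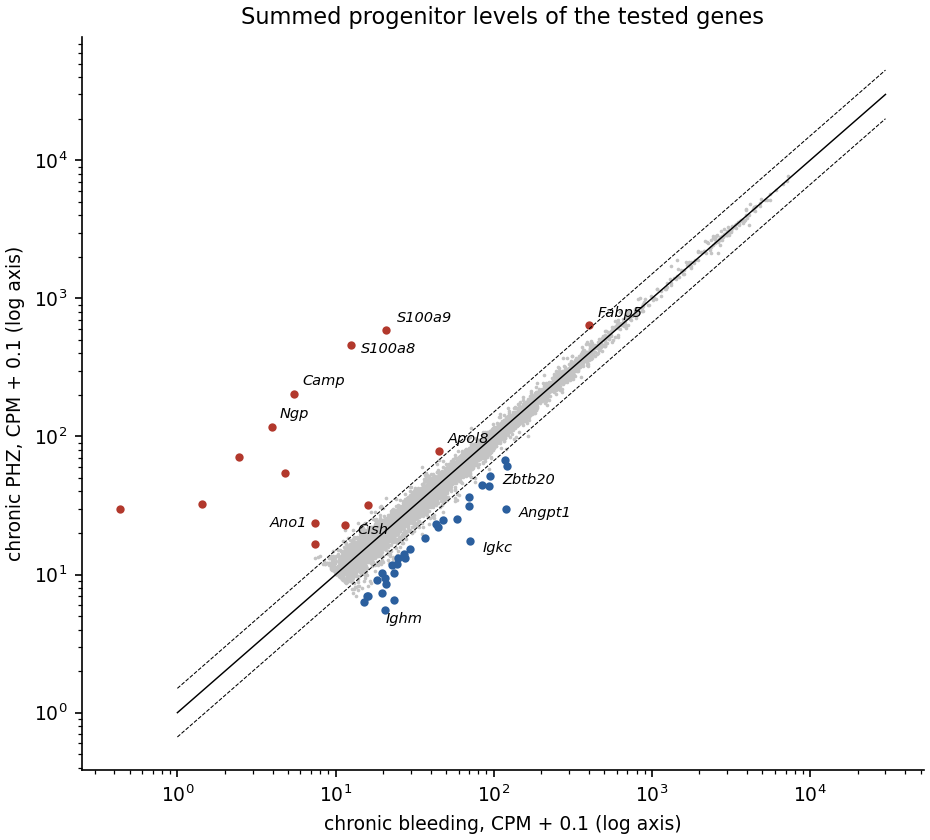
Each point is 1 of 7542 genes, with its summed level in bleeding progenitors (horizontal) and PHZ progenitors (vertical) in CPM plus 0.1 on log axes; the full line marks equal levels, the dashed lines 1.5-fold, and red and blue points the 14 genes called higher and 31 called lower in the PHZ library. Neutrophil genes stand far above the line, and Angpt1 and B cell genes lie below it.

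The libraries were also compared within ranges of globin. These ranges use the measure that chose the cells, and they were compared after results of these data were known. Under 1% globin 16 of 7690 genes were called higher in the PHZ library (0.208%) and 31 lower (0.403%). At 1 to under 5% globin 27 of 7254 were called higher (0.372%) and 6 lower (0.0827%). At 5 to under 20% globin 76 of 6902 were called higher (1.1%) and 45 lower (0.652%), and 66 and 46 without the neutrophil-rich barcode in that range. Calls were most frequent in the range with the most globin. Neutrophil genes (7 of 7 higher) and B cell genes (3 of 3 lower) were called there, as over all progenitors (7 of 7 and 3 of 4). The testing level was a mean of both libraries, so genes high in 1 library alone could pass through it. Over all progenitors Ngp (118 against 3.84 CPM) and Ighm (6.40 against 23.2 CPM) did so, and these list counts are a description only. In the latest range 1 marked barcode held 16762 of the 17357 PHZ neutrophil UMIs.

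Genes that build ribosomes were among those called there. The 24 measured genes of ribosome biogenesis, which make and process ribosomal RNA in the nucleolus, summed to 13098 CPM in the PHZ library and 13634 CPM in the bleeding library under 1% globin, a ratio of 0.961 (0.9501 to 0.972). At 1 to under 5% globin they summed to 9536 and 7448 CPM, a ratio of 1.28 (1.25 to 1.31). At 5 to under 20% globin they summed to 4826 and 2937 CPM, a ratio of 1.64 (1.59 to 1.70). The genes declined with globin in both libraries, and by less in the PHZ library. In the latest range 6 of the 24 were called higher and none lower, beside 1.1% and 0.652% of all genes there, and all 24 had a ratio above 1. Their median log2 ratio was -0.08, 0.34 and 0.81 across the ranges, beside -0.02, 0.02 and 0.04 over all genes tested.

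The called members cover several steps of ribosome assembly. Ncl, the nucleolar protein nucleolin, stood at 1498 against 921 CPM at 5 to under 20% globin, a ratio of 1.63 (1.53 to 1.73). Nolc1, a nucleolar phosphoprotein that binds small nucleolar ribonucleoproteins, stood at 145 against 65.4 CPM, a ratio of 2.22 (1.75 to 2.84). Gnl3, the nucleolar GTPase nucleostemin, stood at 145 against 56.2 CPM, a ratio of 2.59 (2.01 to 3.38). Pes1 and Wdr12, partners in a complex that matures the large subunit, had ratios of 2.68 (1.57 to 4.89) and 2.34 (1.61 to 3.51). Utp20, a factor of small subunit processing, had a ratio of 5.75 (2.17 to 21.6) over 90 PHZ and 4 bleeding UMIs. Utp20 reached the testing level through the PHZ library alone, so its call is a description only. Npm1, the abundant nucleolar chaperone nucleophosmin, stood at 1347 against 857 CPM without reaching the rule for a call.

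The difference was spread over cells. At 5 to under 10% globin the genes took a median of 0.512% of non-globin UMIs in 49 PHZ progenitors, with quartiles of 0.408 and 0.574%, and 0.283% in 13 bleeding progenitors, with quartiles of 0.220 and 0.348%. At 10 to under 20% they took 0.274% in 58 PHZ progenitors (0.166 to 0.324) and 0.138% in 26 bleeding progenitors (0.0784 to 0.206). Of the PHZ cells 45 of 49 and 46 of 58 lay above the bleeding median of their range, and 1 of 13 and 2 of 26 bleeding cells lay above the PHZ median. The distributions overlapped, since the highest bleeding cell at 5 to under 10% reached 0.869%. Under 1% globin the medians were 1.31% and 1.35%, and at 30 to under 50% globin, among cells past the progenitor limit, 0.0914% and 0.0957%. At 20 to under 30% they were 0.140% and 0.108%.

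Depth, globin share and doublet calls were compared beside this. Median globin shares were 7.54% and 7.82% at 5 to under 10%, and 15.1% in both libraries at 10 to under 20%, and the ratio of sums was 1.43 (1.37 to 1.49) and 1.74 (1.63 to 1.85). Over the whole range of 5 to under 20% the median globin share was 10.8% and 11.9%, and 49 of 107 PHZ but 13 of 39 bleeding cells lay under 10%. Depth differed too: medians were 60885 against 41542 UMIs and 38870 against 28502 UMIs, higher in the PHZ library, and the part of globin share and depth in the result was not tested. Without the 3 cells of each library with the most of these UMIs, the ratio at 5 to under 20% globin was 2.01 (1.92 to 2.11). This removal was unequal, since 3 cells are a larger part of 39 bleeding than of 107 PHZ cells, so the rise in the ratio is no support. Without the progenitors that Scrublet marked, 9 PHZ and 2 bleeding cells in that range, it was 1.60 (1.54 to 1.66), with 5 of 24 genes called higher and none lower.

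**Figure D4:**
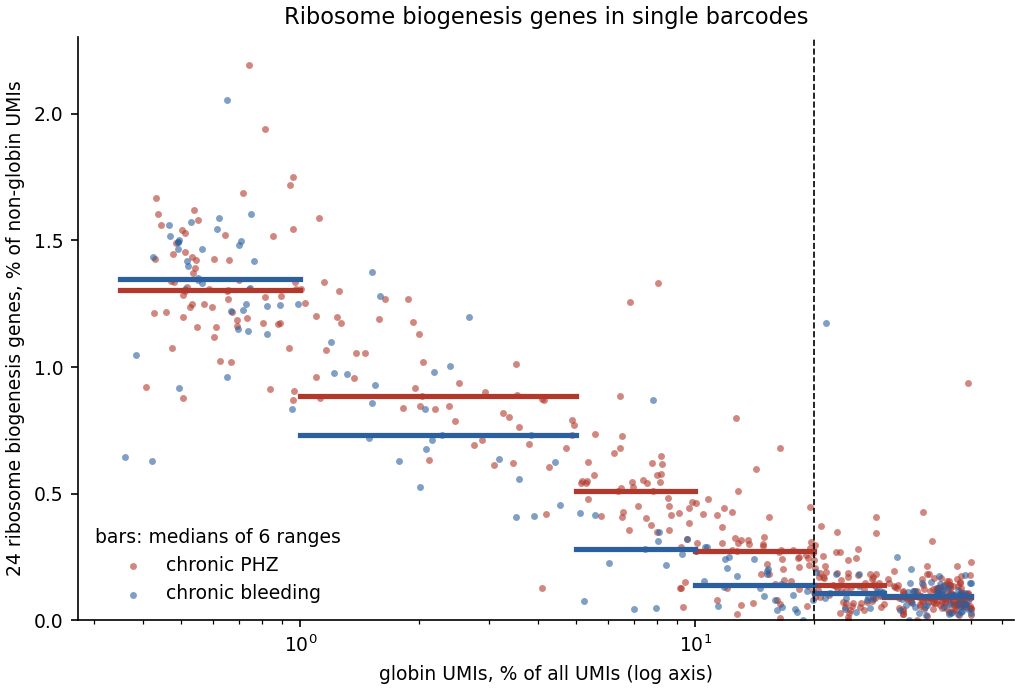
Each point is 1 barcode, with its globin share in percent of UMIs on a log horizontal axis and the share of 24 ribosome biogenesis genes in its non-globin UMIs in percent on the vertical axis, for PHZ (red) and bleeding (blue); bars are medians within 6 globin ranges and the dashed line at 20% is the limit of the progenitors. The red bars lie above the blue ones at 1 to under 20% globin and, by less, at 20 to under 30% (0.140% against 0.108%), and close to them under 1% and at 30 to under 50%.

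The early progenitor list as a whole was not higher in the PHZ library in the same latest range: its ratio of sums was 0.881 (0.845 to 0.919), its median log2 ratio -0.02, and 4 of 8 tested genes had a ratio above 1, with Myb and Mt2 called higher. Zfpm1, Tal1, Lmo2 and Rhd, which stood higher with more globin, are part of that list. Its sum therefore does not describe the genes that declined with globin. Kit, under the level set for testing, had 19 PHZ and 0 bleeding UMIs in this range, 12 of the 19 in 1 barcode. Single genes of this and other lists were called. Myb was at 16.5 against 4.20 CPM, a ratio of 3.94 (1.62 to 12.5). Ccnd2 was at 32.0 against 8.39 CPM, a ratio of 3.81 (2.01 to 8.11). Podxl, a sialomucin that erythropoietin induces, was at 32.4 against 5.87 CPM, a ratio of 5.51 (2.61 to 13.9). These rested on 5, 10 and 7 bleeding UMIs. All 3 were under 10 CPM in the bleeding library and reached the testing level through the PHZ library alone, so their calls are a description only. Hspa8, a constitutive heat shock chaperone, rested on more, at 1261 against 559 CPM and a ratio of 2.26 (2.08 to 2.45), and the 19 measured heat shock genes all had a ratio above 1, with Hspa8 alone called. The glycolytic enzymes Ldha and Pgam1 had ratios of 1.88 (1.57 to 2.27) and 2.91 (1.53 to 6.24).

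Later genes stood lower in the PHZ library in that range, without calls for most. Haem synthesis genes summed to 9072 against 10468 CPM, a ratio of 0.867 (0.849 to 0.884), with none of 18 called and 1 above 1. Genes of the G2 and M phases summed to 16792 against 21136 CPM, a ratio of 0.794 (0.783 to 0.806), with 2 of 52 called lower and 5 above 1. The 16 later erythroid genes had a ratio of sums of 0.819 (0.802 to 0.836), with none called and 1 above 1.

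Against the next cells of the path, those of 20 to 50% globin under the same marker rule (208 PHZ and 73 bleeding barcodes), the progenitors differed in many genes. This comparison uses the globin share that chose the cells and is a description. Of 6950 genes tested, 966 were higher in the progenitors of both libraries with an interval bound beyond 2-fold (13.9%) and 650 were lower (9.35%). The median log2 ratio was 0.35 and 0.34, so the split leans on the scaling: with median-of-ratios scaling 569 were higher and 906 lower, and with all UMIs as the denominator 1921 were higher and 283 lower. The later cells had median depths of 22828.5 and 20016 UMIs.

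Ribosome biogenesis genes stood higher in the summed progenitors than in these cells, along a gradient with globin share. In the PHZ library their median share per cell was 1.31% under 1% globin and 0.274% at 10 to under 20%. At 20 to under 30%, past the progenitor limit, it was 0.140%. The bleeding medians in these ranges were 1.35%, 0.138% and 0.108%, so progenitors near the limit differed little from the next cells there. Of 24 ribosome biogenesis genes 23 were higher in both libraries, all but Ubtf, an activator of RNA polymerase I, and the median log2 ratio was 3.104 and 3.143. Npm1 stood at 3527 against 215 CPM in the PHZ library, a ratio of 16.4 (15.2 to 17.7), and at 3751 against 344 CPM among bleeding cells, a ratio of 10.9 (9.79 to 12.2). Npm3, its relative, had ratios of 26.4 and 17.95. Mybbp1a, a nucleolar repressor of ribosomal RNA transcription, had ratios of 15.2 and 24.9, and Rrp1b, another nucleolar factor, stood at 57.8 against 3.08 CPM and 60.0 against 1.02 CPM. Srm, the spermidine synthase, stood at 212 against 2.77 CPM and 216 against 10.2 CPM. The host transcript Snhg4 had ratios of 15.95 and 23.2.

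Cell cycle and biosynthesis genes led the rest of the higher group. Cdk6 stood at 270 against 3.39 CPM in the PHZ library and at 358 against 11.3 CPM in the bleeding library. Myb stood at 80.7 against 2.77 CPM and 119 against 2.05 CPM. Phgdh, the first enzyme of serine synthesis, had ratios of 27.1 and 24.8, Rangrf, a nuclear import factor, 53.0 and 26.7, and Tomm5, of the mitochondrial import pore, 20.4 and 14.9. Sdad1, the last of the 12 named, had 4 and 2 UMIs in the later cells. Of 19 heat shock chaperones 11 were higher and none lower, with the mitochondrial chaperones Hspe1 at 20.9-fold and 9.33-fold and Hspd1 at 17.3-fold and 10.5-fold. Of 15 glycolytic genes 9 were higher, Ldha at 21.9-fold and 10.8-fold, and Bpgm, which makes the haemoglobin effector 2,3-bisphosphoglycerate, was lower.

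The lower group held genes of haem synthesis and later red cell stages, beside cell cycle and interferon-stimulated genes. Of 18 haem synthesis genes 14 were lower and none higher, with median log2 ratios of -1.68 and -1.71. Alas2 was at 119 against 1459 CPM and 107 against 1440 CPM. Of 16 later erythroid genes 15 were lower, all but Bnip3l, a mitophagy receptor. All 3 measured cyclin dependent kinase inhibitors were lower, Cdkn2d most, at 28.3 against 661 CPM and 24.7 against 720 CPM, with Cdkn2c and Cdkn1b beside it. Of 52 genes of the G2 and M phases 30 were lower and none higher. Of 50 S phase genes 5 were higher and 2 lower, near or under the 13.9% and 9.35% over all genes. The interferon-stimulated genes Rsad2 and Isg15 were among the 12 lowest, at 23.7 against 485 CPM and 22.7 against 544 CPM in the PHZ library and 28.3 against 637 CPM and 23.4 against 478 CPM in the bleeding library. The other named genes were Gch1, Pdzk1ip1, Slfn14, Nrip3, Apol11b, Fam214b, Tinagl1 and 9830132P13Rik.

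Transcription factors and erythropoietin targets held genes called in each direction. Of 23 erythroid transcription factors 4 were higher in the progenitors (Bcl11a, Myb, Stat5a and Stat5b) and 8 lower (Tal1, Zfpm1, Nfe2, Klf3, Sox6, E2f2 and Foxo3, beside Klf1, which took part in choosing the cells). The share higher, 4 of 23, is near the 13.9% over all genes. The share lower, 8 of 23 with Klf1 counted, is above the 9.35% over all genes. Bcl11a, a repressor of embryonic globin genes, declined within the progenitors as well, from 417 to 215 CPM and from 409 to 132 CPM between the lowest and highest globin range. Of 17 genes of erythropoietin signalling and its targets, Stat5a, Stat5b, Podxl, Myc and Ccnd2 were higher and Cish, Pim1, Bcl2l1, Erfe and Tfrc lower. Erfe, the hormone erythroferrone that lowers hepcidin, went from 7.64 to 65.2 CPM in the PHZ library and from 7.90 to 45.3 CPM in the bleeding library within the progenitors.

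**Figure D5:**
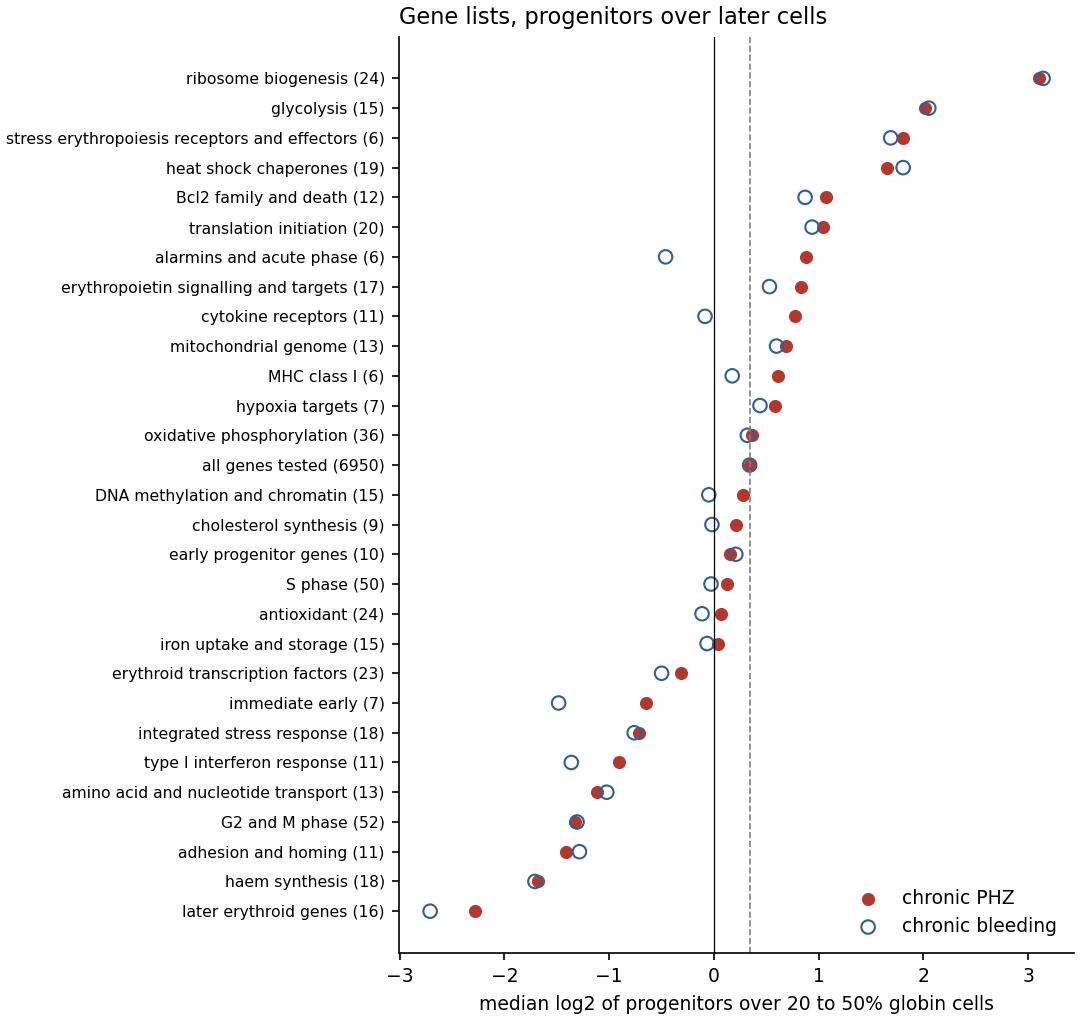
Median log2 ratio of progenitors over the cells of 20 to 50% globin for each gene list with 6 or more tested genes (number in brackets), in the PHZ (filled red) and bleeding (open blue) libraries; the dashed line is the PHZ median over all 6950 genes, 0.35. Ribosome biogenesis lies farthest to the right at 3.104 and 3.143, and later erythroid genes farthest to the left at -2.28 and -2.71.

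The windows of the named genes, from 250 bases before the start to 50 after it, were searched for the same strings. Over all genes 11.4% of windows held AGATAA and 3.57% held CCACACCC, and counts near these shares say nothing particular about the named genes. Of the 12 higher genes 9 were in the table, and AGATAA was found before 1 of them, Sdad1, while CCACACCC was found before none. Of the 12 lower genes 11 were in the table, with AGATAA before Alas2, as printed above, and CCACACCC before 9830132P13Rik.

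Among thinned progenitors the widest spread from cell to cell lay in a few transcripts. The Fano factor (variance over mean) had a median of 1.10 and 1.12 over 5468 genes. Gm42418, a locus that overlaps ribosomal RNA sequence, reached 329 and 326, followed by Malat1, Cmss1 and Angpt1. Slc4a1, Sox6, Npm1, Mki67, mt-Co3 and mt-Atp6 completed the first 10. Npm1 had a mean of 25.4 thinned UMIs per PHZ cell under 1% globin and 4.92 at 5 to under 20%, and Slc4a1 had 0.0758 and 8.05, so these follow the globin ranges. The 8 PHZ and 10 bleeding thinned progenitors with a Kit UMI had a median globin share of 0.524% and 0.523%, against 4.86% and 2.93% in those without.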

How the data were processed

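The authors deposited raw counts: the number of UMIs of each gene in each barcode, empty droplets included and not normalised. Per the submitters' processing notes, Cell Ranger 7.0.0 and build mm10 were used, whereas the file headers name version 4 of that software; the handling of intronic reads is not given in the sources used here. The PHZ matrix held 128130213 UMIs and the bleeding matrix 145260780.

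Members and gene lists were chosen with earlier results of these data known. UMIs were summed over the members of each library and divided by the total without haemoglobin genes. Ratios have exact conditional 95% intervals, shares Clopper-Pearson ones. A gene was tested at a mean of 10 CPM or more and called where the interval bound nearest 1 was beyond 1.5-fold (treatments), or beyond 2-fold in both libraries (progenitors against cells of 20 to 50% globin). Genes named by rule reached 50 UMIs and 50 CPM in the higher set, were outside the rule's own genes and outside the mitochondrial, ribosomal protein, haemoglobin, sex-linked, immunoglobulin and T cell receptor families, and kept the call without the 3 highest cells of each library (treatments only); the first 12 by that bound were named per direction. From the 41 lists, the 4 genes with the most UMIs and those called could be named. Other genes in the text (Ighm, Igkc and the genes followed across globin ranges) were chosen after their values were seen.

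Doublets were marked with Scrublet in scanpy 1.11.5, the highest 0.8% per 1000 barcodes (332 and 754), and were kept except in an alternative. Thinning to 5000 non-globin UMIs left out 5 PHZ and 3 bleeding progenitors. Where the 3 highest cells were left out, they were a larger part of the 101 bleeding than of the 222 PHZ progenitors. The ratios and calls were tried on simulated sums that held counting error alone. Those sums had no spread between cells, so the trial could not show how calls fare when few cells hold the UMIs. Python 3.11.15, numpy 2.4.6, pandas 2.3.3, scipy 1.17.1 and matplotlib 3.10.9 were used. Alternatives changed the globin limit, the lymphocyte limit, doublets, scaling, thinning, the filter on low levels and the highest cells; those that leave out neutrophil-rich members or keep to 1 globin range were added after the data were seen.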

Additional observations from a re-analysis of the deposited data

How the results depend on the processing

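No paired analysis was possible because each group had 1 library, and no replicate could be left out. With no lymphocyte UMI allowed, bleeding progenitors numbered 53, the ratio of shares was 4.26 and Kit was in 22.6% of them. Kit was in 36.0% and 42.7% of PHZ and bleeding progenitors under 10% globin, in 21.1% of PHZ progenitors under 30%, and in 3.69% and 10.2% after thinning.

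Genes called higher in the PHZ library, 14 over all progenitors, numbered 9 under 10% globin, 5 without marked doublets, 6 at 50 CPM or more, 119 with every gene of 1 or more UMIs, 8 without the neutrophil-rich members, and 27 and 76 within 1 to under 5% and 5 to under 20% globin. Genes called lower, 31, numbered 18 without marked doublets, 49 with cells scaled to equal totals, 8 without the 3 highest cells, 8 at 50 CPM or more, 210 with every gene and 6 within 1 to under 5% globin. Pathway list genes called higher, 4, numbered 2 without marked doublets, 2 at 50 CPM or more and 12 with every gene. Those called lower, 3, numbered 5 with up to 10 lymphocyte UMIs, 1 without marked doublets, 7 with scaled cells, 6 after thinning, 1 without the 3 highest cells, 1 at 50 CPM or more and 8 with every gene.

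The log2 ratio of Kit, -0.64, was -1.88 after thinning, -0.40 under 1% globin and turned to 0.88 at 1 to under 5%. That of Gata1 turned from 0.15 to -0.0348 with no lymphocyte UMI, -0.03993 after thinning, -0.0424 at 1 to under 5% and -0.0539 at 5 to under 20% globin. Those of Angpt1 (0.032 at 5 to under 20%, 4 and 1 UMIs) and Aff3 (0.0102 at 1 to under 5%, 30 and 11 UMIs) turned too. So did those of Erfe (-0.0485 under 1%, 53 and 27 UMIs) and Myb (0.65 at 1 to under 5%, 1.98 at 5 to under 20%). The median of type I interferon genes (0.0664 after thinning) turned as well. Under 1% globin, with 444 and 712 UMIs, the ratio of Angpt1 was 0.307 (0.272 to 0.346). Against cells of 20 to 50% globin, 966 genes were higher, and 1921 with all UMIs as the denominator, 369 after thinning, 569 with median-of-ratios scaling and 323 at 50 CPM or more. The 650 lower genes became 283 with all UMIs, 384 with scaled cells and 260 after thinning. All 48 values of the genes named for this comparison kept their sign in every alternative run. Fewer genes were tested at 50 CPM or more and fewer UMIs after thinning; the cause of the other changes was not tested.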

Other observations

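Tnfrsf13c, the receptor for the B cell survival factor BAFF, was seen in the progenitors and was chosen for mention after its values were seen. It lay under the level set for testing, at 6.79 CPM (104 UMIs) in the PHZ library and 1.003 CPM (6 UMIs) in the bleeding library. A UMI was in 24.3% and 4.95% of progenitors, and in 9.22% and 1.02% after thinning. B cell barcodes held it in 61.2% and 60.0% of cells, and background barcodes stood at 47.6 and 56.3 CPM. In the cells of 20 to 50% globin it stood at 97.9 and 26.6 CPM. The summed B cell genes of the progenitors stood at 62.8 and 154 CPM, and the part of B cell RNA in these values was not tested.

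Ddx3y, a gene of the Y chromosome, stood at 55.8 and 57.3 CPM in the progenitors, and Xist, which marks an inactive X chromosome, had 4 and 1 UMIs, so both libraries held male RNA. Meis1, a transcription factor of stem and early progenitor cells, was called lower in the PHZ library under 1% globin, at 6.34 against 21.4 CPM and a ratio of 0.297 (0.199 to 0.437) over 44 and 73 UMIs.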
